A study of Mus musculus with 24 samples.

Results

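Brown adipose tissue of mice given tirzepatide was compared with that of pair-fed mice given vehicle, 12 of the 24 samples of the series, chosen by their treatment labels. The TZP group (6 samples) received tirzepatide, a peptide agonist at both the GIP receptor and the GLP-1 receptor. The PairFedVehicle group (6 samples) is labelled as pair-fed and given vehicle. The other 12 samples are Vehicle (6), given vehicle with no pair feeding in the label and used here as background, and LAGIPRA (6), a long-acting GIP receptor agonist that enters no comparison below but shares in the estimate of spread. All samples carry the strain label C57BL/6J, and none carries a genetic change in the labels. The labels state neither age, sex, diet, dose, route nor duration of treatment, nor which group set the ration and how long before collection the mice last ate. The labels do not say that each library is 1 animal, so the p-values measure the spread between these libraries.

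Tirzepatide is known to lower food intake, and pair feeding is a way of giving vehicle-treated animals the ration of another group, so the comparison asks what differs in brown fat when the vehicle group is pair-fed. Food intake itself was not analysed here. Brown fat burns fatty acids and glucose to make heat through the uncoupling protein Ucp1. It also takes up glucose through the insulin-responsive transporter Slc2a4 (GLUT4) and turns it into new fatty acids, a route known as de novo lipogenesis, which rises with feeding and insulin and falls with fasting. The transcription factors Mlxipl (ChREBP) and Srebf1 are known to drive the lipogenic genes, and Srebf2 those of cholesterol synthesis.

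PolyA RNA was sequenced, and each gene has 1 value per library on a log2 scale, called its level here. Dropping the lowest 25% by mean level left 17263 of 23017 genes for testing, and libraries of a group correlated across genes at r = 0.911 to 0.976. The tissue label was checked against its markers. Ucp1 lay between 15.09 and 15.91 in TZP and between 15.09 and 15.51 in PairFedVehicle libraries, and the 12 brown adipocyte markers averaged 9.26 to 10.41 in TZP and 9.68 to 10.17 in PairFedVehicle libraries. Skeletal muscle transcripts were carried along to a varying extent. The mean of 18 muscle markers ran from 1.18 to 9.20 in TZP and from 0.909 to 9.92 in PairFedVehicle libraries, and it was near the bottom of the scale in TZP 3 and PairFedVehicle 5. No muscle marker was called between the groups. TZP 3 to 6 stood apart in another way. The slope of expression on transcript length, in log2 units per doubling of length, was -0.06, -0.09, -0.12 and -0.17 in TZP 3, 4, 5 and 6, that is, long transcripts had lower levels there relative to short ones. It was 0.018 and 0.020 in TZP 1 and 2 and between -0.0017 and 0.029 in the PairFedVehicle libraries. The means were -0.066 ± 0.074 in TZP and 0.012 ± 0.013 in PairFedVehicle (SD, n = 6 each; exact permutation p = 0.0455, two-sided; 0.0909 adjusted over 2 tests), and the level that 1 read appears to be worth, which is higher where depth is lower, was 1.32 ± 0.225 in TZP and 1.16 ± 0.101 in PairFedVehicle (exact permutation p = 0.152). Results are therefore also given for TZP 1 and 2 and for TZP 3 to 6, each set against all 6 PairFedVehicle libraries. Differences between these subsets were not tested. Their counts of called genes also differ in power, as 2 TZP libraries enter one and 4 the other.

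Tirzepatide and pair-fed brown fat differed in 2832 genes, 16.4% of those tested, at an adjusted p (limma, Benjamini-Hochberg over all tested genes, two-sided) below 0.05. Of these, 1448 (8.39% of tested genes) were higher and 1384 (8.02%) lower in TZP. A difference of at least 1.5-fold was reached by 1196 of them (6.93%), 528 higher (3.06%) and 668 lower (3.87%). The values of the 6 TZP and the 6 PairFedVehicle libraries did not overlap for 850 tested genes (4.92%), 547 of them higher (3.17%) and 303 lower (1.76%) in TZP, and 816 (4.73%) were both called and without overlap. The median difference of all tested genes was -0.0024. The deposited values appear to be quantile normalized, which by itself keeps this centre near 0. Each value below is thus relative to the other genes, and a shift shared by all genes could not be seen. The 4 groups share 1 estimate of spread per gene, so SE and p can be too small for genes that vary more in TZP than elsewhere. With the 12 samples alone, 1503 genes were called. Without TZP 3 and PairFedVehicle 5, an alternative chosen after the data were seen, 2370 genes were called. With TZP 1 and 2 alone 941 genes were called (5.45%), 637 higher (3.69%) and 304 lower (1.76%). With TZP 3 to 6 there were 3775 (21.9%), 1494 higher (8.65%) and 2281 lower (13.2%). Genes called higher outnumbered those called lower with TZP 1 and 2, and the reverse held with TZP 3 to 6.

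De novo lipogenesis genes were higher in TZP, and Acly, Fasn, Acaca and Thrsp were among the 12 highest differences of genes of at least median level whose groups did not overlap. Of 19 lipogenic genes tested, 12 rose, 1 fell and 6 were not called, with a median difference of 0.61, and 9 of the 12 had no overlap between groups. Acly (Entrez 104112), which splits cytosolic citrate into acetyl-CoA, had levels of 8.65, 9.83 and 11.19 (lowest, median, highest) in TZP, against 6.97, 7.15 and 7.28 in PairFedVehicle. Every TZP library lay above every PairFedVehicle library, and the difference was 2.72 (SE 0.28, adjusted p = 1.69e-06), or 6.60-fold. Fasn (Entrez 14104), the fatty acid synthase, had levels of 10.79, 12.16 and 13.39 in TZP, against 9.41, 9.70 and 10.45 in PairFedVehicle. The groups did not overlap, and the highest libraries were TZP 2, 4 and 1 (difference 2.39, SE 0.37, adjusted p = 0.000183). Acaca (Entrez 107476), which makes the malonyl-CoA that Fasn uses, reached 5.73, 6.59 and 8.15 in TZP, against 4.44, 4.63 and 5.09 in PairFedVehicle (difference 2.07, SE 0.30, adjusted p = 0.000117).

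The same direction was seen along the supply of carbon and NADPH to this route. Thrsp, a small protein that rises with lipogenesis, was 1.70 higher (SE 0.21, adjusted p = 1.70e-05), Slc25a1, which exports citrate from mitochondria, 1.39 higher (SE 0.21, adjusted p = 0.000183), and Acss2, which activates acetate, 1.31 higher (SE 0.15, adjusted p = 6.24e-06), all 3 without overlap. Aacs, which activates acetoacetate for lipid synthesis and lies outside the list, had levels of 6.53, 7.11 and 7.84 in TZP, against 5.02, 5.30 and 5.84 in PairFedVehicle (difference 1.80, SE 0.19, adjusted p = 2.78e-06). Of further members, chosen for mention after their values were seen, Elovl6, which elongates palmitate, rose by 1.24 (adjusted p = 0.00325) and Me1, an NADPH source, by 1.01 (adjusted p = 0.00233). The desaturase Scd1 was not called, with 13.16, 13.46 and 14.60 in TZP and 13.46, 13.86 and 14.08 in PairFedVehicle (difference 0.00033, SE 0.23, adjusted p = 0.999). The message of the lipogenic factor Srebf1 was -0.26 (adjusted p = 0.0473), the 1 member called lower, and this call was lost when any of 10 of the 12 libraries was left out. Mlxipl was 0.46 higher (adjusted p = 0.0377), a call lost on leaving out any of 7 libraries. For the list as a whole the median was 0.96 with TZP 1 and 2 (11 called higher, none lower) and 0.38 with TZP 3 to 6 (10 higher, 1 lower).

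**Figure D1:**
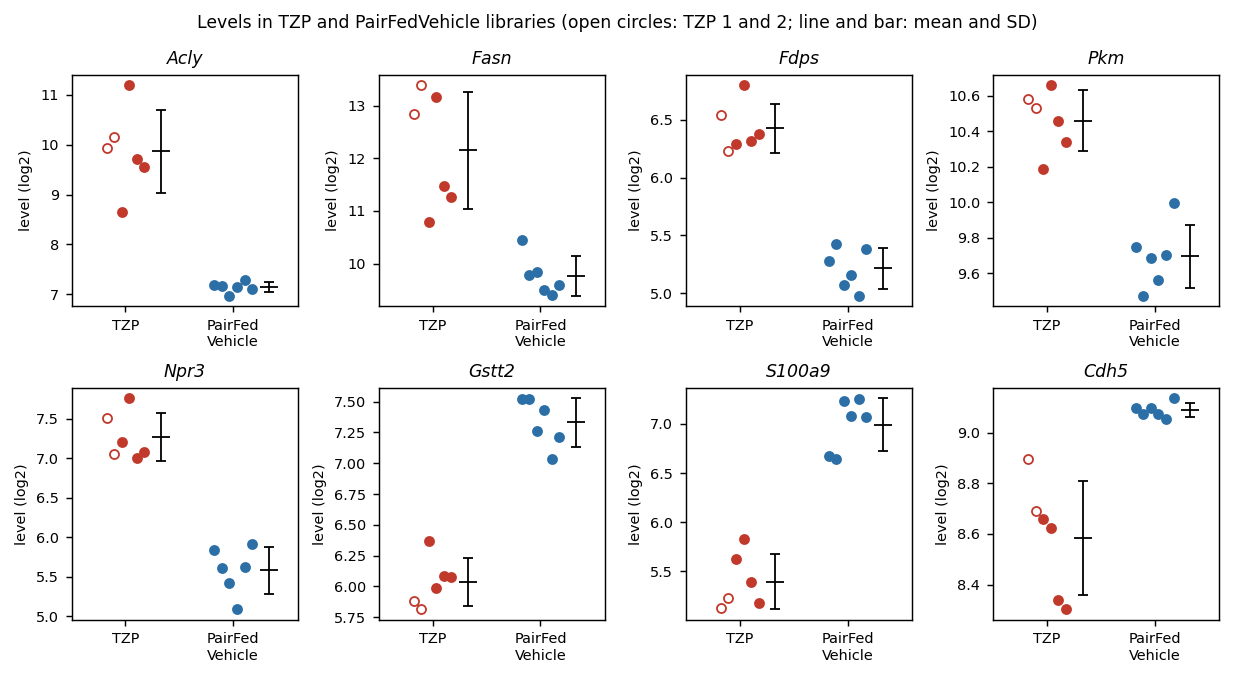
Level (log2) of 8 genes in each library, TZP to the left of PairFedVehicle; points are libraries, open circles are TZP 1 and 2, and the line and bar give the mean and SD (n = 6 each). Acly, Fasn, Fdps, Pkm and Npr3 lie higher in all TZP libraries than in any PairFedVehicle library, and Gstt2, S100a9 and Cdh5 lie lower.

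Most cholesterol synthesis genes were higher in TZP, with exceptions that include Hmgcs1, an enzyme of the first steps. Of 22 tested, 14 rose and none fell, with a median difference of 0.63, and 10 had no overlap. The other 8 were not called, and 6 of the 22 lay below 0, down to -0.51. Fdps (Entrez 110196), which makes farnesyl diphosphate, had levels of 6.23, 6.35 and 6.80 in TZP, against 4.98, 5.22 and 5.42 in PairFedVehicle. The lowest TZP library stood well above the highest PairFedVehicle library (difference 1.22, SE 0.091, adjusted p = 2.46e-08). Nsdhl (Entrez 18194), a sterol C4 demethylation enzyme, had levels of 7.31, 7.59 and 8.04 in TZP, against 6.22, 6.56 and 6.79 in PairFedVehicle (difference 1.13, SE 0.11, adjusted p = 8.90e-07). Idi1, the isopentenyl diphosphate isomerase, differed by 0.95 (SE 0.098, adjusted p = 1.69e-06) and Pmvk, a mevalonate pathway kinase, by 0.88 (SE 0.11, adjusted p = 1.60e-05), again with no overlap. Hmgcs1, named after its values were seen, was not called. It was -0.32 (adjusted p = 0.103), and passed, as lower, when TZP 1 or PairFedVehicle 5 was left out. The list had a median of 0.57 and 10 called higher for TZP 1 and 2, and a median of 0.65 with 14 higher and 2 lower for TZP 3 to 6.

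Promoters of 4 of these genes, 2 lipogenic and 2 of cholesterol synthesis, are shown because both groups of genes were higher in TZP. The sequences are from RefSeq (GRCm38.p6) and run from 250 bases before the annotated start to shortly past it, 5′ to 3′ on the strand of the gene. Capitals mark 3 motifs searched on both strands: CACGTG, a core shared by the sites of several factors including ChREBP and SREBP; TCACNCCAC, a form of the sterol regulatory element; and ATTGG, the core bound by NF-Y, known as a partner of SREBP, read as CCAAT on the other strand. The promoters are Acly, chr11:100527951-100528250, minus strand; Fasn, chr11:120824498-120824797, minus strand; Nsdhl, chrX:72918271-72918570, plus strand; and Idi1, chr13:8885356-8885655, plus strand.
Acly: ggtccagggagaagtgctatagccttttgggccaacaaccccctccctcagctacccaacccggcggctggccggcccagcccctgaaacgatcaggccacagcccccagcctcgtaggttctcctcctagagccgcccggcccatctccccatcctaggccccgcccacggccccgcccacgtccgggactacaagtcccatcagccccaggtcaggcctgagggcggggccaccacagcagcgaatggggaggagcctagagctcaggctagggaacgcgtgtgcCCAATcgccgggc
Fasn: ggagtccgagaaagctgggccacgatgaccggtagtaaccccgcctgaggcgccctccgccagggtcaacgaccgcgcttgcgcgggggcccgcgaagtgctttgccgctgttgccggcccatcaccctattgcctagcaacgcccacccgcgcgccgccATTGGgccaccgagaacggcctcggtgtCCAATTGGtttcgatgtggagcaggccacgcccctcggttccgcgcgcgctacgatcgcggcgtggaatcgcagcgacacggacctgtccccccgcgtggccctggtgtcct
Nsdhl: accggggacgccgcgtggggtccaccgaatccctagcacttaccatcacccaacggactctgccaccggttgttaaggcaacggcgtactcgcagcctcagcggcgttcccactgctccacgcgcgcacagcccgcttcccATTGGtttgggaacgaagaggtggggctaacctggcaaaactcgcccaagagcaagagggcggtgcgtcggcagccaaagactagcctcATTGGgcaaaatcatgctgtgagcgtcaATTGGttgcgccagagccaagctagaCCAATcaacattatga
Idi1: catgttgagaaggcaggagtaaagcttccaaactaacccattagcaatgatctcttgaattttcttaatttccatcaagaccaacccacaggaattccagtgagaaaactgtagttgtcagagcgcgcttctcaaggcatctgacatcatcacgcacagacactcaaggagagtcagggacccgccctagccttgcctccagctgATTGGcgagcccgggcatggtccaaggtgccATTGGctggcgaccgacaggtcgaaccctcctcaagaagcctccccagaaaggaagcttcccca
In these windows ATTGG occurred 1 time in Acly, 3 times in Fasn, where 2 occurrences on opposite strands overlap, 4 times in Nsdhl and 2 times in Idi1, and neither of the other motifs occurred. The window of Acaca, which is not printed, held none of the 3 motifs. A gene with several promoters in the table counts where any of them holds the motif. Of the 12 lipogenic genes that rose, 11 had a promoter in the table, and 9 of these 11 held ATTGG, against 41.1% of all genes in the table. Of the 14 cholesterol genes that rose, 10 had a promoter, and all 10 held it. CACGTG was present in 3 of 11 lipogenic and 2 of 10 cholesterol genes, against 8.09% of all genes, and TCACNCCAC in 1 and in 0 of them, against 1.44%. Members of both lists that did not rise were not counted, so these shares cannot tie a motif to the differences. These are matches of letters, and promoters were not measured in these data.

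Genes of glucose uptake and glycolysis were higher in TZP, from the transporter to lactate dehydrogenase. Of 21 genes, 14 rose and 1 fell, with a median difference of 0.48 and 6 without overlap. Slc2a4 (Entrez 20528), the insulin-responsive glucose transporter, had levels of 6.14, 6.48 and 7.14 in TZP, against 5.21, 5.56 and 5.95 in PairFedVehicle. All TZP libraries were above all PairFedVehicle libraries (difference 0.99, SE 0.17, adjusted p = 0.000454). Pkm (Entrez 18746), which makes pyruvate, had levels of 10.19, 10.49 and 10.66 in TZP, against 9.47, 9.70 and 9.995 in PairFedVehicle (difference 0.76, SE 0.085, adjusted p = 4.99e-06). Ldha, lactate dehydrogenase, was 0.71 higher (SE 0.096, adjusted p = 4.13e-05), and Eno1 and Gapdh were 1.16 and 0.70 higher (SE 0.14 and 0.11, adjusted p = 1.02e-05 and 0.000341), values that are uncertain because both genes have near-identical pseudogenes. The exception was Pfkfb3, which makes the activator of phosphofructokinase and is named as the 1 member that fell. It had levels of 5.24, 5.92 and 6.80 in TZP, against 6.68, 6.96 and 7.43 in PairFedVehicle (difference -0.99, SE 0.19, adjusted p = 0.00135), and it was -0.33 with TZP 1 and 2 against -1.31 with TZP 3 to 6. The list median was 0.58 with TZP 1 and 2 (12 higher, none lower) and 0.44 with TZP 3 to 6 (11 higher, 1 lower).

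The pentose phosphate route, which supplies NADPH, and the entry of pyruvate into mitochondria were also higher. Of 9 pentose phosphate and NADPH genes, 5 rose and none fell. Tkt (Entrez 21881), the transketolase, had levels of 11.24, 11.85 and 13.23 in TZP, against 10.30, 10.40 and 10.74 in PairFedVehicle (difference 1.55, SE 0.23, adjusted p = 0.000142), with TZP 4 the highest library. Pgd ran from 8.15 to 9.39 in TZP, against 7.39 to 7.91 in PairFedVehicle (SE of the difference 0.16, adjusted p = 0.000204), G6pdx by 0.41 (SE 0.092, adjusted p = 0.00419) and Taldo1 by 0.47 (SE 0.11, adjusted p = 0.00620). Of 27 genes of pyruvate dehydrogenase and the citrate cycle, 8 rose and none fell, with a median of 0.13. With TZP 1 and 2 there were 7 higher and none lower (median 0.31). With TZP 3 to 6 there were 6 higher and 2 lower (median 0.065). Over all TZP libraries, the 4 members with the smallest p act at the entry of pyruvate. Pdhb (Entrez 68263), a pyruvate dehydrogenase subunit, had levels of 9.45, 9.76 and 10.44 in TZP, against 8.76, 8.90 and 9.19 in PairFedVehicle, without overlap (difference 0.87, SE 0.14, adjusted p = 0.000294). Mpc2, a subunit of the mitochondrial pyruvate carrier, was 0.59 higher (SE 0.11, adjusted p = 0.000997), and the complex members Pdhx and Dlat were 0.51 and 0.48 higher (SE 0.10 and 0.11, adjusted p = 0.00205 and 0.00361). The inhibitory kinase Pdk4, mentioned after its value was seen, differed by -0.27 (SE 0.20, adjusted p = 0.419), with overlapping groups.

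**Figure D2:**
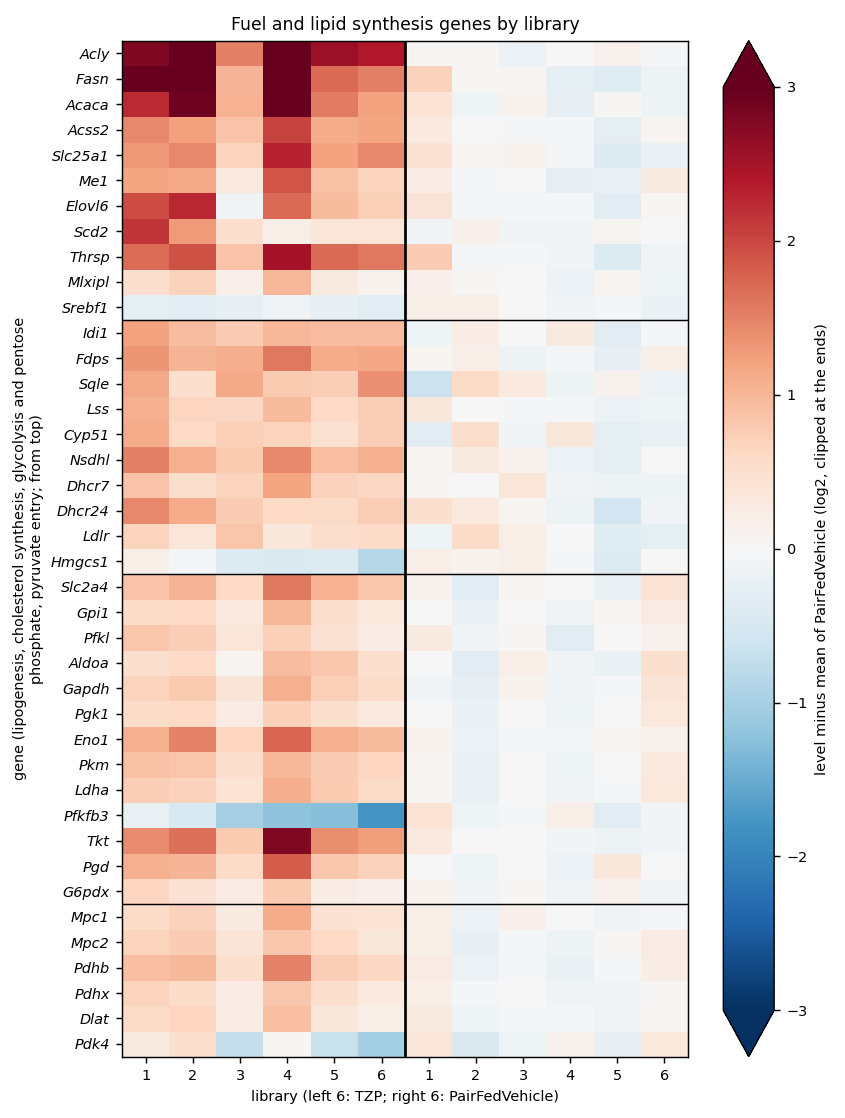
Level of each gene in each library minus its mean in PairFedVehicle (log2; colours end at -3 and 3, and values beyond them are drawn in the end colour); rows are genes grouped by pathway and columns are libraries, the 6 TZP libraries at the left and the 6 PairFedVehicle libraries at the right. Acly has the largest mean difference of the rows, 2.72, while Srebf1, Hmgcs1, Pfkfb3 and Pdk4 are not higher in TZP as a group.

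Genes that build triglyceride or take up and oxidise fatty acids were mixed, and their calls depended on which TZP libraries entered. Of 15 triglyceride synthesis genes, 5 rose and 2 fell (median 0.16), with 4 lower without TZP 1 or TZP 2 and 1 lower without TZP 4, TZP 5 or TZP 6. Gpd1 (Entrez 14555), which makes glycerol 3-phosphate from a glycolytic intermediate, had levels of 13.30, 13.91 and 14.37 in TZP, against 12.41, 12.70 and 13.12 in PairFedVehicle, with no overlap (difference 1.09, SE 0.17, adjusted p = 0.000183). Gpat3, an acyltransferase of the first step, was -0.66 (SE 0.14, adjusted p = 0.00287), and -0.47 with TZP 1 and 2. Of 27 fatty acid oxidation genes, 1 rose and 3 fell (11.1%, against 8.02% of all genes), with a median of -0.014. With TZP 1 and 2 the list had 2 higher and none lower (median 0.15), with TZP 3 to 6 1 higher and 5 lower (median -0.13), and without PairFedVehicle 5 the lower count was 6. Ehhadh (Entrez 74147), a peroxisomal oxidation enzyme, had levels of 6.10, 6.65 and 7.465 in TZP, against 7.474, 7.58 and 8.36 in PairFedVehicle, without overlap (difference -1.05, SE 0.22, adjusted p = 0.00251). Its difference was -0.52 with TZP 1 and 2 and -1.31 with TZP 3 to 6. Cpt1a, which admits fatty acids to mitochondria, was -0.64 (SE 0.15, adjusted p = 0.00504). The member that rose was Acsl5, an acyl-CoA synthetase that also serves lipid synthesis (1.02, SE 0.16, adjusted p = 0.000213).

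Of 24 genes of lipolysis and lipid uptake, 3 rose and 6 fell (median -0.036). With TZP 1 and 2 there were 2 higher and 1 lower (median 0.13), and with TZP 3 to 6 3 higher and 7 lower (median -0.15). With the length slope of each library in the fit, a measure described below, fatty acid oxidation had 1 higher and none lower, and this list 2 higher and 1 lower. Slc27a1 (Entrez 26457), a fatty acid transport protein, had levels of 6.82, 7.03 and 7.13 in TZP, against 7.21, 7.66 and 8.06 in PairFedVehicle. The groups did not overlap, and the difference of -0.65 (SE 0.11, adjusted p = 0.000406) was alike in both subsets, -0.67 with TZP 1 and 2 and -0.65 with TZP 3 to 6. G0s2, an inhibitor of the lipase Pnpla2, was -0.79 (SE 0.16, adjusted p = 0.00214), with -0.32 and -1.02 in the same subsets. Plin3, a lipid droplet coat protein, and Lmf1, needed for the maturation of lipases, rose by 0.48 and 0.43 (SE 0.088 and 0.083, adjusted p = 0.000884 and 0.00131), both without overlap.

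Mitochondrial ribosomal proteins formed the longest pathway list and had the largest number of members called of any pathway list. All 71 members tested had a difference above 0, and the median was 0.26, that is, small for each gene. Of these, 41 rose (57.7%, against 8.39% of all genes) and none fell. The share was higher for glycolysis (66.7%), cholesterol synthesis (63.6%) and lipogenesis (63.2%). Mrps22 (Entrez 64655) had levels of 7.39, 7.50 and 7.64 in TZP, against 6.86, 6.98 and 7.16 in PairFedVehicle. Groups did not overlap here or in 19 further members (difference 0.53, SE 0.074, adjusted p = 6.80e-05). Mrps6 was 0.61 higher (SE 0.094, adjusted p = 0.000183), Mrps27 0.51 higher (SE 0.080, adjusted p = 0.000226) and Mrps11 0.39 higher (SE 0.073, adjusted p = 0.000997). The median was 0.28 with TZP 1 and 2 (15 called higher) and 0.24 with TZP 3 to 6 (36 higher). The mean level of the list was 8.09 to 8.29 in TZP and 7.84 to 8.08 in PairFedVehicle libraries. Of 58 cytosolic ribosomal proteins, none was called in either direction by limma (median -0.035), with 5 lower and 0 higher at an unadjusted p below 0.05. Rps6 was -0.21 and Rps14 -0.20 (adjusted p = 0.0958 and 0.0692). The number called lower was 3 with TZP 1 and 2 (median -0.20), 11 when each library was corrected for its length slope (median -0.11), 3 without PairFedVehicle 1, 2 without TZP 6 and 1 without TZP 3.

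Few respiratory chain genes were called, although most lay above 0. In complex I 5 of 36 members rose and none fell (median 0.20, 33 above 0), and in complexes II to V 3 of 39 rose (median 0.16, 35 above 0). Against Vehicle, 27 of the 36 and 19 of the 39 were called higher in TZP. Ndufs8 was 0.38 higher (SE 0.10, adjusted p = 0.0131), and Sdhd, of succinate dehydrogenase, 0.31 higher (SE 0.088, adjusted p = 0.0189). At an unadjusted p below 0.05 there were 16 and 9, all higher. These counts depended on single libraries. The complex I count ran from 1 to 11 with 1 library left out in turn, lowest without TZP 4 or PairFedVehicle 2, 4 or 5 and highest without PairFedVehicle 1, and the other count from 0, without TZP 4, to 7, without PairFedVehicle 1. No member of either list was called with TZP 1 and 2 alone, and 2 of each were called higher with TZP 3 to 6. The medians were nevertheless 0.24 and 0.22 with TZP 1 and 2, against 0.14 and 0.13 with TZP 3 to 6. Among 30 genes of mitochondrial import and quality control, 9 rose and none fell (median 0.14). Phb, prohibitin, was 0.43 higher (SE 0.10, adjusted p = 0.00763) and Timm9, an intermembrane chaperone, 0.36 higher (SE 0.087, adjusted p = 0.00695); the count was 5 without PairFedVehicle 4, 6 without TZP 4, TZP 5 or PairFedVehicle 5, and 13 without PairFedVehicle 1. Carriers of the inner membrane rose in 5 of 22, among them Slc25a39, a glutathione importer (0.40, SE 0.091, adjusted p = 0.00435); the count was 3 without TZP 4, 8 without PairFedVehicle 1 and 8 with each library corrected for its length slope. Of 27 genes that break down branched-chain amino acids, 4 rose and 1 fell (median 0.089), with 3 lower without TZP 2 and 2 lower without TZP 1 or PairFedVehicle 5. With TZP 1 and 2 there were 4 higher and none lower (median 0.27), and with TZP 3 to 6 2 higher and 4 lower (median 0.012). Mcee (Entrez 73724), which acts on methylmalonyl-CoA, averaged 9.42 ± 0.16 in TZP and 8.98 ± 0.19 in PairFedVehicle (SD, n = 6 each; difference 0.44, SE 0.089, adjusted p = 0.00214). Bcat2, the mitochondrial transaminase at the head of the route, averaged 7.21 ± 0.13 in TZP and 7.16 ± 0.10 in PairFedVehicle (difference 0.055, SE 0.073, adjusted p = 0.674).

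**Figure D3:**
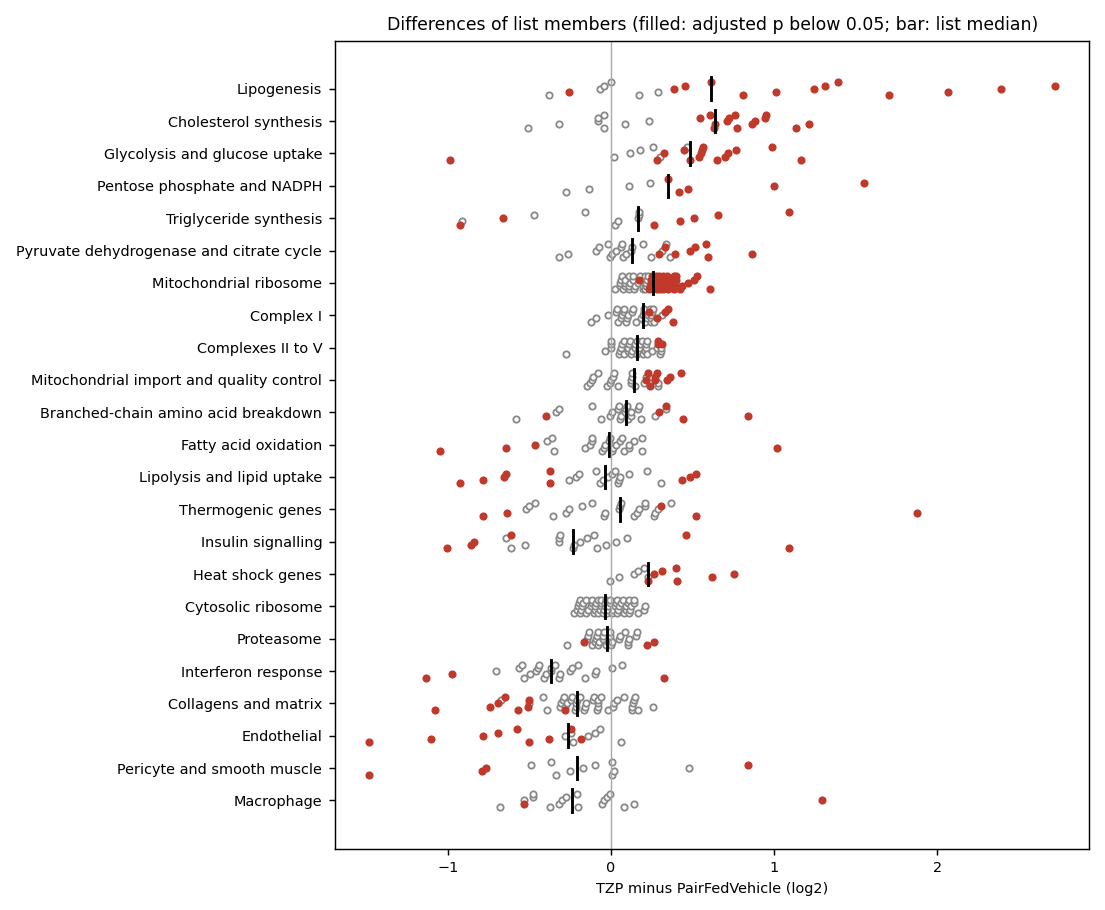
Difference of each list member, TZP minus PairFedVehicle (log2), by list; filled points have an adjusted p below 0.05, open points do not, and the black bar is the list median. The lipogenesis median is 0.61 and the cholesterol median 0.63, the mitochondrial ribosome points all lie above 0 within a narrow band, and the endothelial points lie below 0 but for 1.

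Most thermogenic genes, Ucp1 among them, were not called. Ucp1 (Entrez 22227) had levels of 15.09, 15.36 and 15.91 in TZP, against 15.09, 15.39 and 15.51 in PairFedVehicle, so the groups overlapped fully (difference 0.054, SE 0.12, adjusted p = 0.815). Equal values recur for Ucp1 across libraries, so its differences are steps between ranks and not measured folds. Of 27 thermogenic genes, 3 rose and 2 fell (median 0.054). Bmp8b, a growth factor of brown fat, was 1.87 higher (SE 0.44, adjusted p = 0.00595), with the groups overlapping, from 3.66 to 5.19 in TZP and from 1.65 to 4.18 in PairFedVehicle. Letmd1, a mitochondrial protein of brown fat, was 0.52 higher (SE 0.12, adjusted p = 0.00625) and Esrra, an orphan nuclear receptor of mitochondrial genes, 0.31 higher (SE 0.087, adjusted p = 0.0180). Lhx8, a brown fat transcription factor, was -0.64 (SE 0.17, adjusted p = 0.0124). Prdm16, a brown fat identity factor, was -0.79, but its sign turned with TZP 1 and 2 (0.26) and its call was lost on leaving out any of 9 libraries. The list median was 0.31 with TZP 1 and 2 (3 higher, none lower) and -0.074 with TZP 3 to 6 (3 higher, 6 lower). Without TZP 1 the lower count was 5, without TZP 2 it was 4, and it was 1 without TZP 4, TZP 5, TZP 6, PairFedVehicle 2 or PairFedVehicle 6.

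Among the 10 tested genes of the natriuretic and adrenergic receptor list, 1 rose and 1 fell, and Npr3 differed most. Npr3 (Entrez 18162), the receptor that removes natriuretic peptides, had levels of 7.004, 7.14 and 7.76 in TZP, against 5.09, 5.61 and 5.92 in PairFedVehicle. The lowest TZP library was over 1 log2 unit above the highest PairFedVehicle library (difference 1.68, SE 0.15, adjusted p = 3.16e-07), and the subsets gave 1.70 and 1.68. The member that fell was Npr2 (-0.24, SE 0.080, adjusted p = 0.0403), a call lost on leaving out any of 7 libraries. The signalling receptor Npr1 and the beta-3 adrenergic receptor Adrb3 were not called, with differences of 0.13 and 0.14 (adjusted p = 0.454 and 0.462). Gipr (Entrez 381853), the receptor that tirzepatide shares with GIP, averaged 3.11 ± 0.16 in TZP and 2.98 ± 0.40 in PairFedVehicle (SD, n = 6 each; difference 0.14, SE 0.19, adjusted p = 0.689), low on the scale in both. Ramp2 and Calcrl, which together form the adrenomedullin receptor, were -0.35 and -0.81 (SE 0.075 and 0.22, adjusted p = 0.00321 and 0.0157). Ramp2 was alike in the subsets, at -0.37 and -0.34. Calcrl was -0.39 with TZP 1 and 2 (adjusted p = 0.468) and -1.02 with TZP 3 to 6. Of 24 cAMP genes 3 rose and 4 fell, with 4 higher and none lower for TZP 1 and 2 and 2 higher and 9 lower for TZP 3 to 6. Without TZP 1 the lower count was 7, and without TZP 2 it was 6. The adenylyl cyclases Adcy9 and Adcy6 and the phosphodiesterase Pde3b fell by 1.10, 0.96 and 0.72, but with TZP 1 and 2 they were -0.22, 0.019 and 0.10, and none was called.

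The insulin receptor substrate Irs1 was lower and the adaptor Grb14 higher in TZP, while most insulin signalling genes were not called. Of 21, 2 rose and 4 fell, with a median of -0.23. Irs1 (Entrez 16367) had levels of 5.57, 6.01 and 6.53 in TZP, against 6.67, 7.13 and 7.34 in PairFedVehicle, without overlap (difference -1.01, SE 0.21, adjusted p = 0.00283). It was -0.89 with TZP 1 and 2 and -1.07 with TZP 3 to 6. Grb14 (Entrez 50915), which inhibits the insulin receptor, had levels of 7.15, 7.29 and 7.81 in TZP, against 6.13, 6.18 and 6.65 in PairFedVehicle, and the difference of 1.09 (SE 0.11, adjusted p = 1.62e-06) was the same in both subsets. Pik3r1 was 0.46 higher (adjusted p = 0.0441), a call lost on leaving out any of 8 libraries, with 0.55 and 0.42 in the subsets. Foxo3 and Irs2 fell by 0.86 and 0.84, but with TZP 1 and 2 they were -0.034 and -0.28, and the call for Irs2 was lost on leaving out any of 5 libraries. The list median was 0.16 with TZP 1 and 2 (1 higher, none lower) and -0.51 with TZP 3 to 6 (1 higher, 12 lower). The number called lower ran from 1 without TZP 5 to 8 without TZP 2.

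Of 19 secreted factors of fat, 2 rose and 2 fell (10.5% each, against 8.39% and 8.02% of all genes), and 15 were not called. Without TZP 4 the lower count was 1. Rbp4 (Entrez 19662), the retinol carrier, had levels of 8.37, 8.68 and 8.91 in TZP, against 7.19, 7.42 and 8.12 in PairFedVehicle, without overlap (difference 1.13, SE 0.17, adjusted p = 0.000132). Lep, leptin, was 0.90 higher (SE 0.21, adjusted p = 0.00557), from 7.37 to 8.41 in TZP and from 6.39 to 7.64 in PairFedVehicle. Cfd, adipsin, was lower by a similar amount, -1.07 (SE 0.27, adjusted p = 0.00888), from 9.33 to 10.35 in TZP and from 10.10 to 11.82 in PairFedVehicle. Adiponectin (Adipoq) was not called (-0.17, adjusted p = 0.202).

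Heat shock genes were higher in TZP, and calls among clock genes depended on the libraries and the fit. Of 13 heat shock genes 7 rose and none fell (median 0.23), led by Hsph1 (0.75, SE 0.16, adjusted p = 0.00368), a chaperone of the Hsp110 family, and the small chaperone Hspb1 (0.62, SE 0.15, adjusted p = 0.00809). Without TZP 4 the count was 4. With TZP 1 and 2 it was 5 (median 0.41), and with TZP 3 to 6 it was 2 (median 0.16). Of 22 endoplasmic reticulum chaperones and unfolded protein response genes none rose and 2 fell, Ern1 and Sel1l, by 1.56 and 0.58, but with TZP 1 and 2 they were -0.12 and -0.086. Psph and Atf5 were the 2 of 19 ATF4 response genes that rose (0.55 and 0.49, SE 0.12 and 0.13, adjusted p = 0.00277 and 0.0113). Of 18 clock genes, 4 rose and 3 fell. With TZP 1 and 2 there were 1 higher and none lower (median 0.30), with TZP 3 to 6 none higher and 5 lower (median -0.12), and with the length slope in the fit none was called. The number called higher was 2 without TZP 1, TZP 4, PairFedVehicle 3 or PairFedVehicle 5, and the number called lower was 1 without TZP 5 or PairFedVehicle 6. Per3, a period gene, had levels of 2.16, 3.45 and 4.09 in TZP, against 4.29, 4.45 and 4.72 in PairFedVehicle (difference -1.17, SE 0.24, adjusted p = 0.00219), but was -0.55 with TZP 1 and 2 (adjusted p = 0.278). Nfil3, which opposes some clock output genes, was 0.72 higher (SE 0.20, adjusted p = 0.0152). Arntl, the clock activator, was 0.48 higher (SE 0.14, adjusted p = 0.0213), a call lost without PairFedVehicle 2. The labels do not state the hour of tissue collection. Fkbp5, a glucocorticoid target, rose by 0.83 (SE 0.22, adjusted p = 0.0117), the 1 called of 13 in its list.

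Enzyme genes outside lipid and glucose use differed as well. Gstt2 (Entrez 14872), a theta class glutathione transferase, had levels of 5.82, 6.03 and 6.37 in TZP, against 7.03, 7.35 and 7.52 in PairFedVehicle. The groups were well apart (difference -1.29, SE 0.095, adjusted p = 2.46e-08), with -1.48 in TZP 1 and 2 and -1.20 in TZP 3 to 6. Of 23 antioxidant genes, 3 fell and none rose; the other calls, Gstt1 and Gpx3, were lost on leaving out any of 9 and any of 7 libraries. Alas1 (Entrez 11655), the first enzyme of heme synthesis, had levels of 10.50, 10.58 and 10.74 in TZP, against 9.63, 9.82 and 10.11 in PairFedVehicle, without overlap (difference 0.76, SE 0.091, adjusted p = 9.09e-06).

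Among the 12 highest genes of at least median level, taken from those whose groups did not overlap, were some outside the lipid and sugar enzymes above. Ptgds, the lipocalin-type prostaglandin D synthase, had levels of 5.83, 6.19 and 6.41 in TZP, against 4.17, 4.45 and 5.30 in PairFedVehicle (difference 1.55, SE 0.18, adjusted p = 6.24e-06). Pygl, a glycogen phosphorylase, had levels of 8.37, 8.99 and 10.19 in TZP, against 7.35, 7.49 and 7.95 in PairFedVehicle (difference 1.56, SE 0.23, adjusted p = 0.000142). Npr3 is described above. Fam57b (1.57, SE 0.19), which acts in ceramide synthesis, and the histone gene Hist1h3i (1.44, SE 0.26) were higher too. Histone genes are near-identical copies, so reads may be shared between them. Among the 12 lowest, taken in the same way, B3galt2, a galactosyltransferase, had levels of 6.33, 6.66 and 7.05 in TZP, against 7.45, 8.48 and 8.95 in PairFedVehicle (difference -1.63, SE 0.21, adjusted p = 2.70e-05), and it was -1.58 and -1.66 in the subsets. Peg3os had levels of 6.52, 7.16 and 8.18 in TZP, against 8.86, 9.61 and 9.94 in PairFedVehicle (difference -2.26, SE 0.26, adjusted p = 6.24e-06). It is antisense to Peg3, and as strandedness was not given, reads of the 2 genes cannot be told apart; Peg3 itself differed by -1.09 (adjusted p = 0.127).

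S100a9, Rsad2 and Ifit2 were lower and Ighm and Lyve1 higher in TZP, while most immune genes were not called. In bulk tissue, fewer cells of a type and less RNA per cell cannot be told apart. S100a9 (Entrez 20202), a neutrophil calcium-binding protein, had levels of 5.12, 5.31 and 5.83 in TZP, against 6.64, 7.08 and 7.25 in PairFedVehicle. There was no overlap, and the difference was -1.60 (SE 0.20, adjusted p = 2.34e-05). Of 5 neutrophil markers tested, this was the 1 called lower; all 5 were below 0 (median -0.82), and 3 were called without PairFedVehicle 1 or without TZP 3. Of 26 interferon response genes, 23 were below 0 (median -0.37), 2 fell and 1 rose, Ifi27, whose call was lost on leaving out any of 7 libraries. Rsad2, viperin, had levels of 5.85, 6.18 and 6.36 in TZP, against 6.89, 7.11 and 7.97 in PairFedVehicle (difference -1.14, SE 0.20, adjusted p = 0.000680), and Ifit2 was -0.97 (SE 0.21, adjusted p = 0.00321), both without overlap. Without PairFedVehicle 1 the number called lower was 8. The mean level of the interferon list ran from 5.51 to 5.78 in TZP and from 5.46 to 6.45 in PairFedVehicle libraries. Of 24 cytokine and chemokine genes 1 was called, Cxcl12 (-0.78, SE 0.16, adjusted p = 0.00214). It was -0.34 with TZP 1 and 2 (adjusted p = 0.301) and -0.996 with TZP 3 to 6.

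Macrophage markers gave 1 call in each direction out of 18 (median -0.24). Lyve1, a hyaluronan receptor of lymphatic endothelium and of some resident macrophages, had levels of 4.69, 4.96 and 5.65 in TZP, against 3.24, 3.80 and 4.40 in PairFedVehicle, without overlap (difference 1.29, SE 0.22, adjusted p = 0.000469). Mertk was -0.53 (adjusted p = 0.0426), a call lost on leaving out any of 8 libraries. The macrophage list averaged 6.87 to 7.85 in TZP and 6.87 to 8.07 in PairFedVehicle libraries. Ighm, the immunoglobulin mu heavy chain of B cells, had levels of 9.71, 9.77 and 9.93 in TZP, against 8.26, 8.57 and 9.14 in PairFedVehicle (difference 1.12, SE 0.17, adjusted p = 0.000172), while the other 6 lymphocyte markers tested were not called. Of 8 erythroid markers, none was called by limma (5 lower and 0 higher at an unadjusted p below 0.05) and all were below 0 (median -0.84), with Hbb-bt at -1.09 (SE 0.38, adjusted p = 0.0502) and Hbb-bs at -0.88 (SE 0.37, adjusted p = 0.107). Without TZP 3 and PairFedVehicle 5, 4 of the 8 were called lower. The summed level of the 8 ran from 60.7 to 73.2 in TZP and from 64.9 to 86.4 in PairFedVehicle libraries. The part of blood in any result was not tested.

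Some further lists are given in brief. Of 32 proteasome genes 2 rose and 1 fell, led by Psmc4 (0.26, SE 0.052, adjusted p = 0.00167); the lower count ran from 0, without PairFedVehicle 4, to 4, without TZP 1, and was 3 without TZP 5 and 2 without TZP 2 or PairFedVehicle 5. Of 16 amino acid transporters tested, 1 rose, Slc7a6 (0.82, adjusted p = 8.13e-05), and 5 fell (31.2%, against 8.02% of all genes). The number called lower was none with TZP 1 and 2, 5 with TZP 3 to 6 and 1 with the length slope in the fit. It was 2 without TZP 3, TZP 5, TZP 6, PairFedVehicle 3 or PairFedVehicle 4, and 3 without TZP 4, PairFedVehicle 1 or PairFedVehicle 2. Of 22 immediate early genes, 3 rose and 1 fell: Maff (1.09), Jund (0.49) and Fosb were higher and Klf6 lower (-0.52), the call for Fosb being lost on leaving out any of 6 libraries. Without TZP 3 the lower count was 3, and without PairFedVehicle 2 or PairFedVehicle 6 it was 2. Ndn was 0.70 higher (adjusted p = 1.18e-05) among 22 imprinted genes. Of these, 2 rose (9.09%, against 8.39% of all genes) and 4 fell (18.2%, against 8.02%). The lower count ran from 2, without TZP 5, to 6 with 1 library left out in turn. Gamt, which makes creatine, rose by 0.88, the 1 called of 12 genes of creatine and calcium cycling. Gamt was 0.21 with TZP 1 and 2 (adjusted p = 0.478) and 1.21 with TZP 3 to 6. S100b, held in the Schwann cell and nerve list, was 0.84 higher, the 1 called of 7 members tested. It averaged 11.85 in TZP and 11.02 in PairFedVehicle, against 5.22 and 5.12 for the list. Which cells made it was not tested. Cdkn1a, a cell cycle inhibitor, rose by 0.60, the 1 called of 24 cell division genes. No mast cell marker of 5 was called by limma, with 1 higher and 0 lower at an unadjusted p below 0.05, and none of the 6 mesothelial markers passed the filter on low values.

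Vessel genes were lower in TZP. Of 16 endothelial markers 9 fell, none rose and 15 were below 0 (median -0.27). Their mean level was 6.77 to 7.35 in TZP and 7.45 to 7.61 in PairFedVehicle libraries, so the groups did not overlap. Cdh5 (Entrez 12562), VE-cadherin, had levels of 8.30, 8.64 and 8.89 in TZP, against 9.05, 9.09 and 9.14 in PairFedVehicle (difference -0.50, SE 0.078, adjusted p = 0.000189). Tek (Entrez 21687), the angiopoietin receptor Tie2, had levels of 5.48, 5.73 and 6.08 in TZP, against 6.27, 6.47 and 6.66 in PairFedVehicle (difference -0.70, SE 0.093, adjusted p = 3.55e-05). Both were smaller in TZP 1 and 2, at -0.30 and -0.38, than in TZP 3 to 6, at -0.61 and -0.85. Tie1 was alike in both subsets, -0.38 each (SE over all 0.064, adjusted p = 0.000454). Cd93, an endothelial glycoprotein, was -1.48 with all 6 TZP libraries, but -0.47 in TZP 1 and 2 and -1.99 in TZP 3 to 6. With TZP 1 and 2 alone 2 of the 16 were called lower, and with TZP 3 to 6 10 were.

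Pericyte and smooth muscle genes gave 1 higher and 3 lower of 14 (median -0.21). The number called lower was 1 with TZP 1 and 2 and 6 with TZP 3 to 6, and it was 5 without TZP 1 and 6 without TZP 2. Pdgfrb, a pericyte receptor, had levels of 5.27, 5.60 and 5.95 in TZP, against 6.24, 6.31 and 6.60 in PairFedVehicle (difference -0.76, SE 0.11, adjusted p = 0.000110), and it was -0.45 and -0.92 in the subsets. Rgs5, a pericyte regulator of G protein signalling, was -0.79 (SE 0.16, adjusted p = 0.00161) with -0.25 and -1.06 in the subsets, and Cnn1, of smooth muscle, was 0.84 higher (SE 0.21, adjusted p = 0.00808). Of 47 collagens and matrix genes, 8 fell and none rose (median -0.21). Nid1, nidogen, was -1.08 (SE 0.24, adjusted p = 0.00366) and Col8a1, a short-chain collagen, -0.74 (SE 0.16, adjusted p = 0.00340), with -0.22 and -0.76 in TZP 1 and 2. No matrix gene was called with TZP 1 and 2 alone, and 13 were with TZP 3 to 6. Without TZP 4 the count was 4, and without TZP 5 it was 5. No fibroblast marker of 10 was called by limma, with 1 higher and 1 lower at an unadjusted p below 0.05, and no muscle marker of 18, with 0 at that p. With 1 library left out, up to 1 fibroblast marker was called in each direction.

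Genes called lower had longer transcripts than genes called higher. The longest annotated transcript had a median of 5081 bases for genes called lower and 2165 for genes called higher, against 2914 for all tested genes with a length. Of the 12 lowest genes of at least median level whose groups did not overlap, 8, including the chromatin regulators Arid1a, Kmt2d, Setd1b and Dot1l, had larger differences with TZP 3 to 6 and were not called with TZP 1 and 2. Arid1a (Entrez 93760), a subunit of a chromatin remodelling complex, had levels of 3.60, 4.45 and 6.28 in TZP, against 6.39, 6.48 and 6.66 in PairFedVehicle. Its 2 highest TZP values were those of TZP 1 and 2, at 6.27 and 6.28, and the difference of -1.70 (SE 0.34, adjusted p = 0.00205) was -0.21 with TZP 1 and 2 and -2.44 with TZP 3 to 6. The SD of Arid1a was 1.24 in TZP and 0.10 in PairFedVehicle, so the shared estimate of spread understates this SE. Kmt2d, a histone H3K4 methyltransferase, was -0.26 and -1.70 in the same subsets, Setd1b, of the same enzyme family, -0.46 and -2.33, and Dot1l, an H3K79 methyltransferase, -0.23 and -2.28. Slc6a6, the taurine transporter, was -0.66 and -2.56, and Notch3, a pericyte receptor, -0.44 and -2.01. Il6st, the shared receptor of interleukin 6 family cytokines, and Elmsan1 were -0.30 and -0.44 with TZP 1 and 2. The other 4, Gstt2, S100a9, B3galt2 and Peg3os, were called in both subsets. Peg3os too had a larger difference with TZP 3 to 6, at -2.696, than with TZP 1 and 2, at -1.395.

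**Figure D4:**
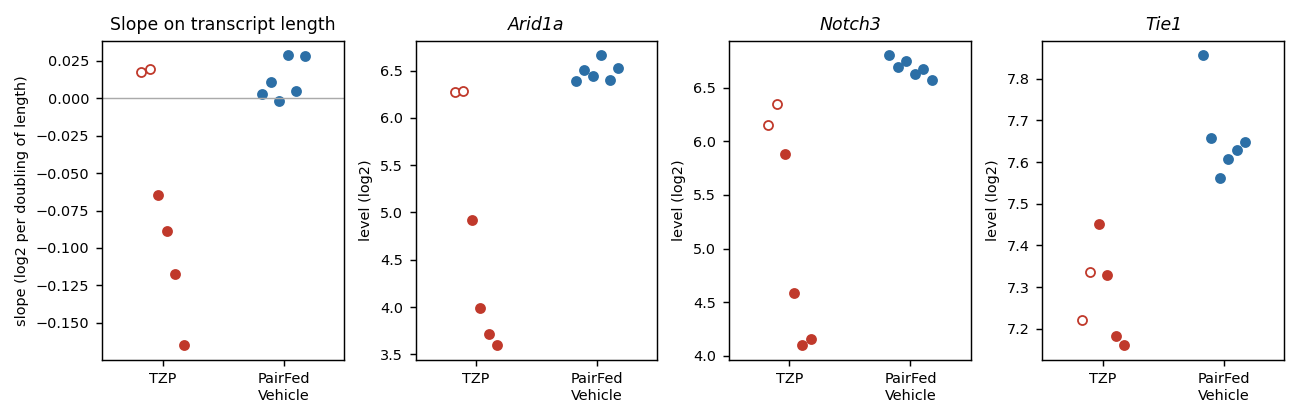
Slope of expression on transcript length (log2 per doubling, left) and levels (log2) of Arid1a, Notch3 and Tie1 in each library, TZP to the left of PairFedVehicle; open circles are TZP 1 and 2. TZP 3 to 6 have slopes of -0.06 to -0.17 and the lowest Arid1a and Notch3 levels, while Tie1 is lower in all 6 TZP libraries.

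The median difference of the 1384 genes called lower was -0.23 with TZP 1 and 2 and -0.71 with TZP 3 to 6, and that of the 1448 called higher was 0.49 and 0.44. These genes were chosen on all 6 TZP libraries, so the 4 values are descriptions. When the length slope of each library was added to the fit, 987 genes were called (5.72%), and 671 were called higher (3.89%) and 316 lower (1.83%). Under that fit the lipogenesis list had 10 higher members (median 0.80, against 0.61 without the slope), cholesterol synthesis 11 (0.53, against 0.63), glycolysis 12 (0.55, against 0.48) and the mitochondrial ribosome 19, down from 41 (0.25, against 0.26). The endothelial list had 3 lower, down from 9 (-0.18, against -0.27), the matrix list none called (-0.13, against -0.21), and insulin signalling 2 higher and none lower (0.10, against -0.23). A correction of each library for its own slope left 2652 called (17.2%), 1330 higher (8.63% of 15407) and 1322 lower (8.58%). Of the 152 called genes named by the rule, 63 were called with the same sign in every setting that tested them, which was all 30 settings for 60 genes and 29 for the other 3. Those tested in all 30 include Acly, Fasn, Acaca, Fdps, Pkm, Npr3, Grb14, Gstt2, S100a9 and Tie1.

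**Figure D5:**
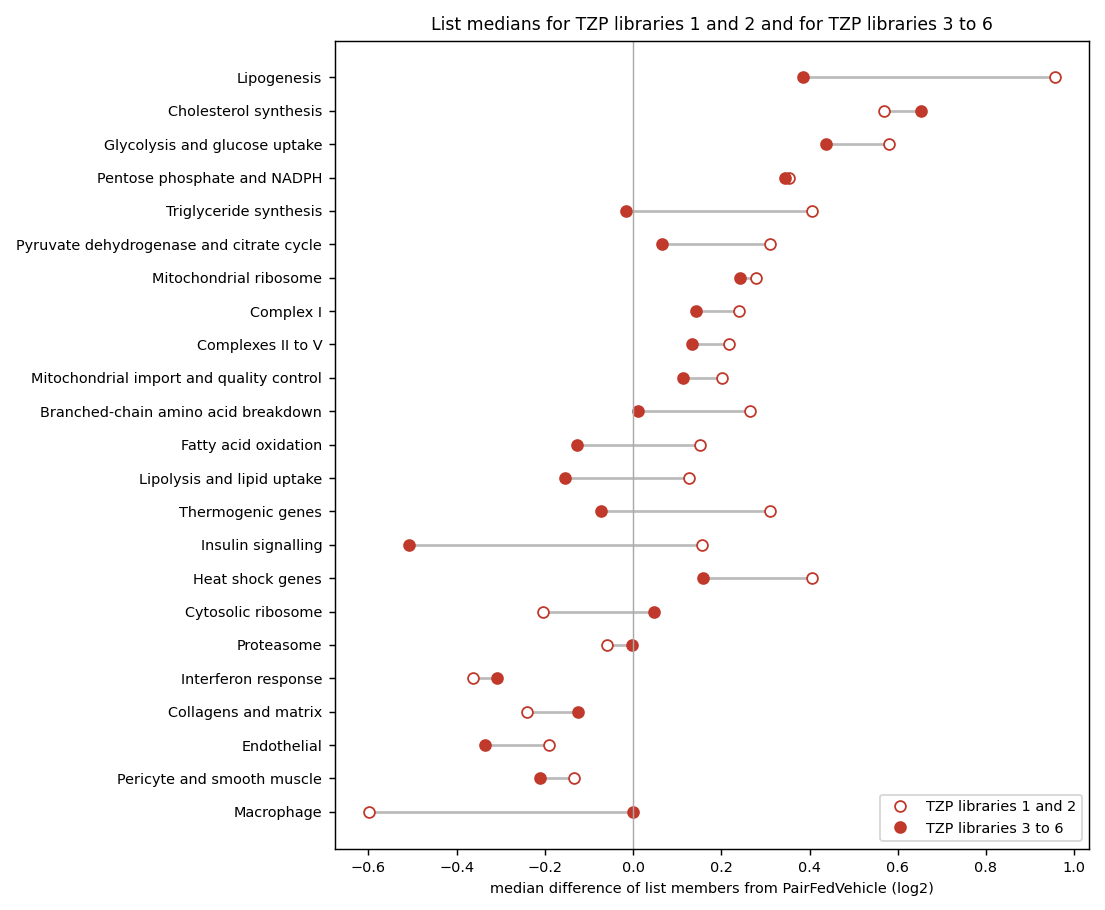
Median difference of list members from PairFedVehicle (log2) for TZP 1 and 2 (open circles) and for TZP 3 to 6 (filled circles), by list; the grey line joins the medians. Lipogenesis, cholesterol synthesis, glycolysis and the mitochondrial ribosome stay above 0 in both subsets, endothelial genes stay below 0, and insulin signalling goes to 0.16 in one and -0.51 in the other.

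Levels in Vehicle place these differences, with the caution that each pair of comparisons below shares a group. PairFedVehicle against Vehicle gave 1487 called genes (8.61%), 856 higher (4.96%) and 631 lower (3.66%), and TZP against Vehicle 3805 (22%), 2021 higher (11.7%) and 1784 lower (10.3%). Acly had a median of 9.83 in TZP, 7.15 in PairFedVehicle and 9.64 in Vehicle, so that TZP differed from Vehicle by 0.23 (adjusted p = 0.601) and PairFedVehicle from Vehicle by -2.49 (adjusted p = 5.65e-06). The lipogenesis list had a median of -0.0022 for TZP minus Vehicle (2 higher, 2 lower) and of -0.99 for PairFedVehicle minus Vehicle (1 higher, 11 lower). For cholesterol synthesis these medians were 0.0018 (none higher, 1 lower) and -0.63 (none higher, 14 lower), and for glycolysis 0.16 (3 higher) and -0.35 (1 higher, 10 lower). Npr3 had medians of 7.14, 5.61 and 7.50 in TZP, PairFedVehicle and Vehicle, and Grb14 of 7.29, 6.18 and 7.13. Gstt2, by contrast, was highest in PairFedVehicle, with medians of 6.03, 7.35 and 5.89.

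For other genes TZP differed from both vehicle groups. The mitochondrial ribosome had a median of 0.28 for TZP minus Vehicle (56 of 71 higher) and of 0.036 for PairFedVehicle minus Vehicle (none higher, 1 lower). Slc2a4 had medians of 6.48 in TZP, 5.56 in PairFedVehicle and 5.74 in Vehicle; TZP minus Vehicle was 0.75 (adjusted p = 0.00382) and PairFedVehicle minus Vehicle -0.24 (adjusted p = 0.433). Irs1 was at 6.01, 7.13 and 6.84, with -0.79 for TZP minus Vehicle (adjusted p = 0.0114), and Mcee at 9.45, 8.94 and 8.77, with 0.62 (adjusted p = 0.000428). For the endothelial list the medians were -0.31 for TZP minus Vehicle (9 lower) and 0.034 for PairFedVehicle minus Vehicle (2 higher, 1 lower). Ucp1 was higher than in Vehicle in both, by 0.50 in TZP (adjusted p = 0.00579) and by 0.45 in PairFedVehicle (adjusted p = 0.0208), within the limits of its tied ranks.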

How the data were processed

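PolyA RNA of 24 brown fat samples was sequenced, and the authors deposited 1 table with 1 value per gene and sample. Per the values of the deposited table, these are on a log2 scale with an offset near 1 and were quantile normalized, so differences of low genes are understated, genes of the highest ranks share values, and library totals are lost; the authors' reads and depth are not given in the sources used here. Cutadapt 1.9.1 and GSNAP are named in the submitters' processing notes, without their roles; the genome build, gene counting and strandedness are not given in the sources used here.

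Groups were taken from the treatment labels. Genes in the lowest 25% by mean over all samples were left out (17263 of 23017 kept). One mean per group was fitted to all 24 samples with limma 3.58.1 in R 4.3.3 (empirical Bayes with a mean trend), and p-values were adjusted by Benjamini-Hochberg over all tested genes, with a threshold of 0.05. No count test was run, because the values are not counts. Library properties were compared by exact permutation (924 assignments, smallest possible p 0.00216). The fitting code was tested on simulated data. The length slope used the longest GENCODE transcript of each gene, known for 15407 tested genes (89.2%). Figures used matplotlib 3.10.9 in Python 3.11.15.

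Members, gene lists and tests were chosen with earlier results of these data known. Of the list members, 14 have no row in the table and 61 fell below the filter. Genes named are Gipr, Ucp1, Mcee, Bcat2 and Slc2a4; the 12 highest and 12 lowest called genes of at least median mean level without overlap, passing over unnamed models and immune receptor segments; up to 4 called members of each list with the smallest p; and up to 2 members, as values, from a list with none called. Some genes that this rule takes are not reported here. Other genes, Srebf1, Mlxipl, Elovl6, Me1, Scd1, Hmgcs1, Pfkfb3, Pdk4, Adrb3, Npr1, Adipoq, Pik3r1 and Peg3 among them, and the histone and glycogen lists were chosen after their values were seen. Alternatives comprised each library left out in turn, the TZP subsets, other filters, offsets, scalings, covariates and variance settings, and a replicate block.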

Additional observations from a re-analysis of the deposited data

Results flagged for a closer look

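In 330 groups of 6 values (165 named genes in TZP and in PairFedVehicle), 14 held 1 library far from the other 5 by Dixon's criterion, and chance alone gives about 1 in 20 such groups. PairFedVehicle 1 was that library for 6 genes, PairFedVehicle 5 for 4, TZP 4 for 2, and PairFedVehicle 4 and PairFedVehicle 6 for 1 each. All values here are levels (log2).

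In TZP 4, Hsd17b10, a mitochondrial dehydrogenase, was at 9.01, against 8.68 to 8.77 in the other TZP libraries, and Psph, of serine synthesis, at 6.31, against 5.70 to 5.85. In PairFedVehicle 1, Hist1h3i was at 3.15, against 4.50 to 4.84 in the other PairFedVehicle libraries. Tkt was at 10.74 there, against 10.30 to 10.46, and Thrsp at 13.26, against 12.09 to 12.44. Mrps11 was at 7.16, against 6.80 to 6.89, Slc27a2, a fatty acid transporter, at 9.02, against 8.20 to 8.46, and Tie1 at 7.86, against 7.56 to 7.66.

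In PairFedVehicle 5, Pgd was at 7.91, against 7.39 to 7.57 in the other PairFedVehicle libraries. Gstt1 was at 6.81, against 7.23 to 7.43, Snrpn, an imprinted gene, at 6.48, against 6.81 to 6.99, and Prdm16 at 4.32, against 4.91 to 5.16. Sel1l was at 5.99 in PairFedVehicle 4, against 5.60 to 5.69, and Cp, ceruloplasmin, at 6.05 in PairFedVehicle 6, against 5.65 to 5.77.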

How the results depend on the processing

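Of 152 called genes named by the rule, 63 kept their sign and their side of the threshold in every setting that tested them, 60 of them in all 30 settings and 3 (Peg3os, Bmp8b and Lpin3) in 29. The counts depended on which TZP libraries entered. With TZP 1 and 2 alone, 941 genes were called (637 higher, 304 lower, 534 at least 1.5-fold), and with TZP 3 to 6, 2281 were lower and 1854 at least 1.5-fold, against 1384 and 1196 with all 6. Fitting the 12 samples alone gave 1503 (912 higher, 591 lower, 758 at least 1.5-fold), and the length slope as covariate 987 (671 higher, 316 lower, 443 at least 1.5-fold). The count at least 1.5-fold was 755 with an offset of 10 and 734 with the stricter filter. With 1 library left out in turn, called genes ranged from 2018 to 3181, higher from 1036 to 1651, lower from 940 to 1747 and at least 1.5-fold from 931 to 1485. Signs turned for Ucp1, to -0.074 with TZP 3 to 6 and -0.049 without TZP 1 (up to 0.12 without TZP 6), for Bcat2, to -0.0065 with the value of 1 read as covariate, and with TZP 1 and 2 alone for Adcy6 (0.019), Pde3b (0.10), Slc38a2 (0.082), Prdm16 (0.26) and Mfap5 (-0.0026). The cause was not tested. A replicate block called 2625 genes (1337 higher, 1288 lower); same-numbered libraries correlated at -0.43 to 0.23, and 1 of 6 correlated best with its own number, so the samples share only a number and no pairing is claimed. The number of libraries and the loss of depth information limit the precision of low genes.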

Other observations

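The following lists and genes were chosen after their values were seen, and carry values only. Of 61 tested histone genes, whose polyadenylated reads may be shared between near-identical copies, 35 were called higher and none lower (median difference 0.73; 43 higher and 0 lower at an unadjusted p below 0.05 in limma), with a mean level of 6.13 to 6.64 in TZP and 5.54 to 6.02 in PairFedVehicle libraries. With TZP 1 and 2, 14 histone genes were called higher (median 0.51), and with TZP 3 to 6, 31 were (median 0.80). With the length slope in the fit 15 were called higher, and 26 with each library corrected for its slope. The list median was 0.075 for TZP minus Vehicle (4 higher, 1 lower) and -0.50 for PairFedVehicle minus Vehicle (23 lower). Hist1h1d, a linker histone, had levels of 5.88, 6.08 and 6.46 (lowest, median, highest) in TZP, against 4.48, 4.76 and 4.83 in PairFedVehicle. The proliferation marker Mki67 differed by 0.36 (adjusted p = 0.495).

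Of 25 glycogen genes, 4 were called higher and none lower, a count that was 8 without PairFedVehicle 6, 7 without TZP 3, 6 without PairFedVehicle 1 and 3 without TZP 5, PairFedVehicle 4 or PairFedVehicle 5. The called genes include Pygl, described above, Gys2, a glycogen synthase (difference 1.18), and Gbe1, the branching enzyme (0.84). The largest differences lay at low levels. Slc2a5, a fructose transporter, had levels of 2.85, 5.13 and 7.19 in TZP, against 0.23, 0.34 and 0.71 in PairFedVehicle and 2.95, 4.11 and 4.92 in Vehicle. Cyp4b1, a fatty acid hydroxylase, had levels of 8.17 (median) to 8.43 (highest) in TZP, against 8.85, 9.18 and 9.64 in PairFedVehicle, without overlap.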
